A study of Zea mays with 33 samples.

Results

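Of the 44146 maize gene models with a Zm00001d identifier in the count files, 118 (0.267%) were steadily expressed, in the sense that their level stayed high and nearly even over every organ sampled. A gene was taken when it reached at least 50 CPM in all 33 libraries and when the ratio of its highest to its lowest tissue mean over 11 tissues was at most 2. CPM is the number of reads on the gene's own strand in every 1000000 such reads over all gene rows, rescaled between libraries by TMM factors (trimmed mean of M-values, computed by edgeR). The level alone was met by 677 genes, so the 118 were 17.4% of these, and the other 559 abundant genes serve as the comparison. The genes were thus chosen by their level in every library and by their tissue means, so what follows on levels is a description. Reads from the opposite strand are a measure that it did not use, and the contrast by harvest date is one that it did not use directly. All 33 libraries entered the choice of the 118. The held-out libraries described below belong to choices made anew without them.

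The RNA came from the inbred line B73, with no mutant, and each tissue had 3 libraries. The titles of all 33 libraries also carry the condition code WW, so no treatment was compared. Seedlings grown on perlite gave roots (DAS4_R) and hypocotyls (DAS4_HY) at 4 days after sowing, each library being a pool of plants. From single greenhouse plants came the white immature leaf parts (V2_LF-I) and green blades (V2_LF) of the V2 stage and, at pollen shed, the leaf (PS_LF), internode (PS_IN1), silk (PS_SILK), tassel (PS_TAS) and ear (PS_EAR). Whole seeds came from field-grown plants, pooled from 1 ear per library, and were labelled 12 (DAP12_S) and 35 (DAP35_S) days after pollination, although the methods of the study name a later day for the younger seeds. The older seeds were also extracted by a phenol-chloroform protocol of their own, so organ, stage, growth condition and extraction cannot be told apart where they coincide. The gene reads of a library numbered 15.8 M at the lowest and 42.9 M at the highest (M, 1000000 reads), and in 33 of 33 the most similar other library was of the same tissue. No member had fewer than 544 reads in any library.

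Genes that every cell uses, for making and breaking down proteins, moving vesicles and handling RNA, are commonly called housekeeping genes, and those with the most even levels serve as reference genes when transcript amounts are compared between organs. A sequencing library reports shares, not amounts: where a few transcripts take a large part of the reads, as storage protein transcripts can in a seed, every other gene loses share. TMM scaling divides that loss out by taking the bulk of the genes as unchanged, so what counts as even depends on this step. The files give identifiers only, and the reference table used here could not be matched to them, so the genes are named by identifier and no role is assigned.

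**Figure D1:**
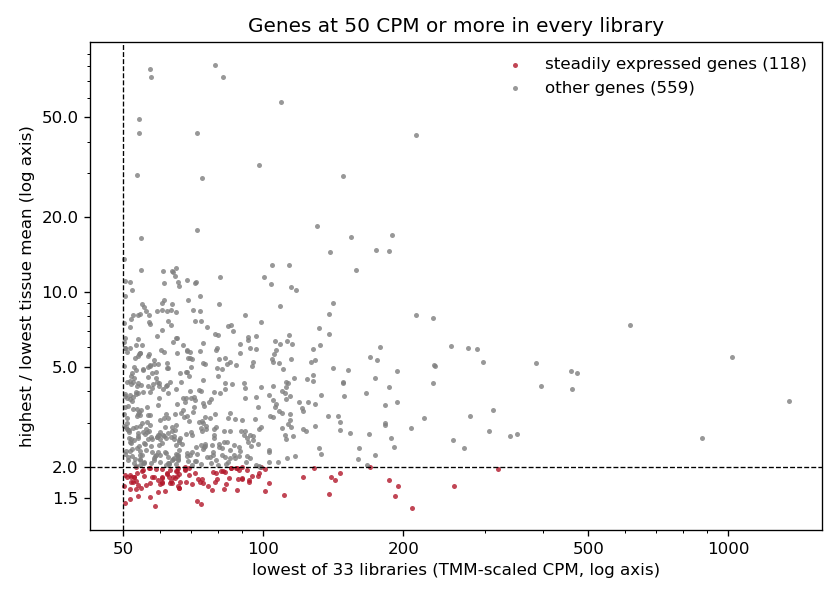
Each point is 1 of the 677 genes at 50 CPM or more in every library; the horizontal axis is its lowest library (TMM-scaled CPM, log axis) and the vertical axis the ratio of its highest to its lowest tissue mean (log axis), with dashed lines at 50 CPM and at a ratio of 2. The 118 steadily expressed genes (red) lie between 1.37 and 1.999, below the 559 others (grey), whose ratios reached 81.4.

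Within the 118 the ratio had a median of 1.80 (quartiles 1.70 and 1.91), so most sat in the upper part of the allowed range. Only 6 stayed within 1.5 and 46 within 1.75, as the plot of ratio against level shows. Taken library by library, the highest value exceeded the lowest by 1.58 to 3.48 times (median 2.11), and 39 genes kept even this ratio at or below 2. Their mean level ran from 61.7 to 533 CPM with a median of 102 CPM, against a median of 168 CPM in the other abundant genes. These levels count reads, with no correction for transcript length, so they order the genes by the reads they took and not by transcripts.

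The edges of the definition were crowded. Just inside the ratio stood Zm00001d049680 at 1.999, Zm00001d028207 at 1.995 and Zm00001d001809 at 1.990, and just outside it Zm00001d052078 at 2.0002, Zm00001d038709 at 2.005 and Zm00001d017847 at 2.018. In their lowest library, Zm00001d034492 had 50.03 and Zm00001d038658 50.43 CPM, while Zm00001d023749 at 49.85 and Zm00001d044313 at 49.29 CPM were left out. A further 7517 gene models had a ratio of at most 2 but fell below 50 CPM somewhere.

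With TMM scaling and all libraries, the most even gene was Zm00001d044315, with a ratio of 1.37 ± 0.0324 (SD carried over from the replicates of the highest and the lowest tissue only). Its TMM-scaled CPM was 292, 241 and 257 in the 3 root libraries, 209.7, 215 and 214 in hypocotyl, 215, 239 and 217 in immature leaf, and 274, 262 and 253 in V2 blade. At pollen shed it was 209, 231 and 224 in leaf, 233, 228 and 233 in internode, 286, 297 and 291 in silk, 331, 249.7 and 283 in tassel, and 216, 255 and 236 in ear. The seeds held 249.8, 256 and 261 CPM at the earlier stage and 263, 291 and 268 CPM at the later one. Silk was highest (291 ± 5.67, SD, n = 3) and hypocotyl lowest (213 ± 2.87), and the libraries of these tissues did not overlap, whereas the range of the root libraries took in those of V2 blade and of both seed stages. The spread within tassel alone, 249.7 to 331 CPM, was wider than the distance between the highest and the lowest tissue mean. Tassel, at 288 ± 40.9 CPM, was close to silk, and its wider SD does not enter that of the ratio. First place also depended on the processing. With DESeq2 size factors, another scaling between libraries, the ratio was 1.49, against 1.34 for Zm00001d010804 and 1.42 for Zm00001d014575. Without replicate number 2 it was 1.45, against 1.40 for Zm00001d014575.

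Before TMM scaling the tassel values of Zm00001d044315 lay closer together, at 198, 197 and 181 CPM, and the TMM factors of the same libraries were 0.599, 0.787 and 0.639. Over all 118 genes, however, the tassel replicates lay closer together after scaling: the median coefficient of variation was 12.4% with TMM factors and 21.9% without. In the other 10 tissues the median coefficient of variation of the genes lay between 3.82% (DAP12_S) and 8.45% (V2_LF-I).

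Next in order came Zm00001d011233, with a ratio of 1.40 ± 0.137. It was highest in V2 blade at 82.2, 83.5 and 94.6 CPM and lowest in hypocotyl at 65.9, 62.0 and 58.5 CPM, and the other 9 tissue means lay between 63.0 and 75.1 CPM. The V2 blade libraries stood above all others, and the remaining tissues largely overlapped. Of its variance over the 33 libraries 62.4% lay between tissues, the least of any of the 118.

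The other genes of the most even 10 were Zm00001d010804 (ratio 1.41), Zm00001d014575 (1.43), Zm00001d028034 (1.45), Zm00001d049076 (1.49), Zm00001d015886 (1.51), Zm00001d049230 (1.52), Zm00001d021051 (1.53) and Zm00001d014977 (1.54). They did not share a profile. The highest tissue was the pollen-shed leaf for Zm00001d014575, Zm00001d028034, Zm00001d049076 and Zm00001d014977, the DAP12_S seed for Zm00001d010804 and Zm00001d049230, and silk for Zm00001d015886. Zm00001d021051 peaked in V2 blade instead, at 85.6 CPM, and was lowest in tassel at 56.1 CPM. Zm00001d014575 had the lowest ratio between single libraries of all 118, from 50.5 to 79.8 CPM.

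The gene that took the most reads was Zm00001d006760, with a mean of 533 CPM over the tissues and a ratio of 1.97 ± 0.231. It held 634, 542 and 557 CPM in root, 539.6, 616 and 559.9 in hypocotyl, 611, 664 and 717 in immature leaf, and 672, 731 and 666 in V2 blade. The pollen-shed leaf held 545, 707 and 711 CPM, the internode 413, 372 and 427, the silk 478, 495 and 452, the tassel 319, 391 and 342, and the ear 444, 438 and 365. Seeds had 600.4, 663 and 641 CPM at DAP12_S and 403, 439 and 445 at DAP35_S. The values thus fell into an upper range, made of seedling organs, leaves and young seed, and a lower one, made of internode, silk, tassel, ear and old seed, and the highest library of the lower range (495 CPM, silk) was below the lowest of the upper (539.6 CPM, hypocotyl). V2 blade (689 ± 35.9 CPM) and tassel (351 ± 37.0 CPM) were the extremes.

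After it by reads came Zm00001d046336 (mean 364 CPM, ratio 1.67), Zm00001d003401 (288 CPM, 1.77), Zm00001d000300 (268 CPM, 1.99), Zm00001d014673 (268 CPM, 1.68) and Zm00001d044315 (251 CPM, 1.37). Their extremes lay in different tissues. Zm00001d000300 was highest in V2 blade (414, 409.5 and 309.9 CPM) and lowest in ear (192, 199 and 179.8 CPM), and its pollen-shed leaf values of 226, 337 and 336 CPM covered much of that distance. Zm00001d014673 peaked in DAP12_S seeds at 355 CPM and was lowest in the pollen-shed leaf at 212 CPM. Zm00001d003401 peaked in the same seeds at 336 CPM and was lowest in tassel at 190.5 CPM, while Zm00001d046336 peaked in silk at 450.2 CPM and was lowest in DAP35_S seeds at 269.9 CPM.

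**Figure D2:**
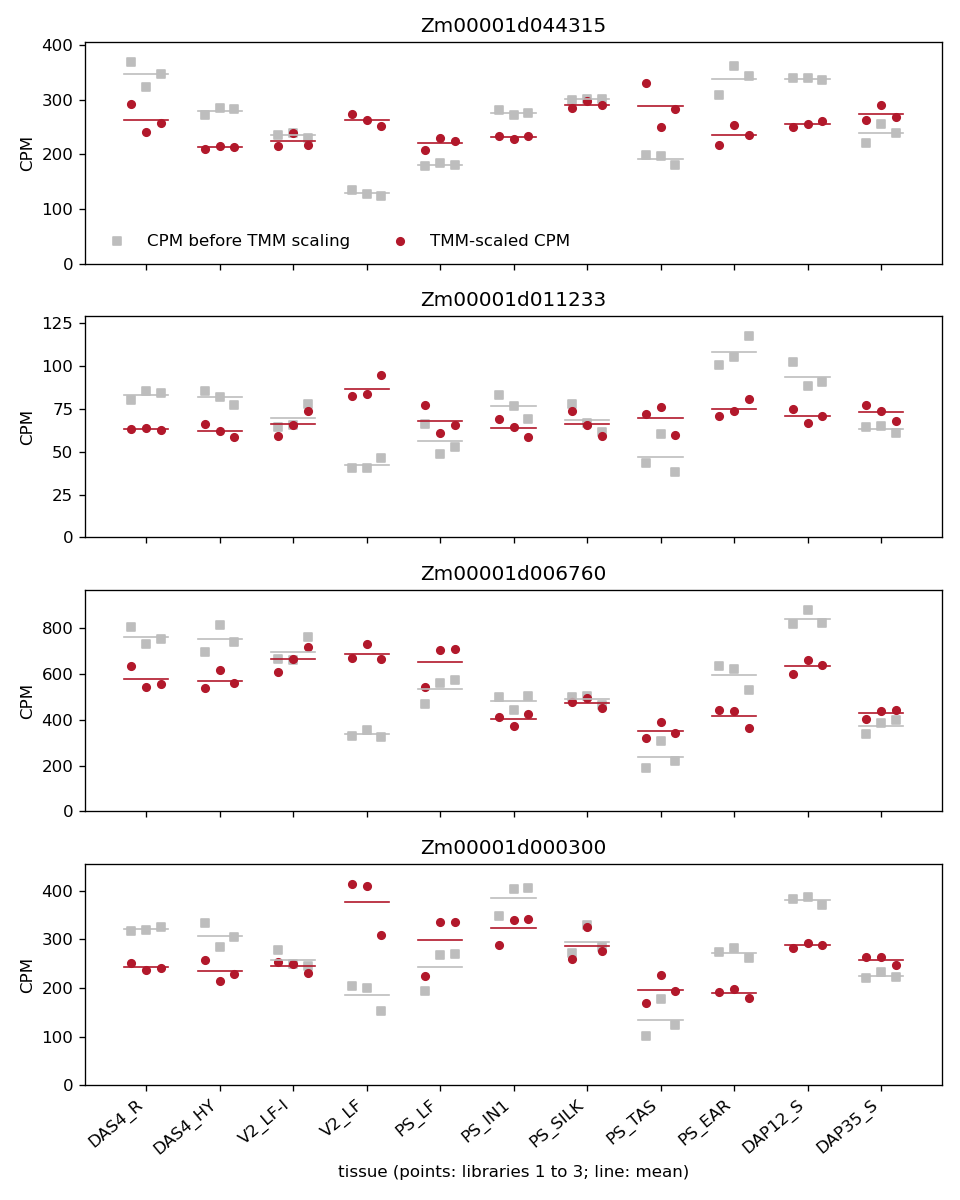
CPM of 4 genes in each of the 33 libraries by tissue, after TMM scaling (red circles) and before it (grey squares); points are libraries 1 to 3 and lines are tissue means. Zm00001d044315 stays between 209 and 331 CPM after scaling, and in V2_LF the value before scaling lies below the scaled one for all 4 genes.

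Averages can hide single libraries. Zm00001d018370, picked out after its values were seen, had the widest library range, 98.9 to 344 CPM, and was the only one of the 118 whose ratio between single libraries exceeded 3. Its highest value came from the first pollen-shed leaf, at 344 CPM, while the other 2 leaves had 185 and 154 CPM, inside the range of the other tissues. The first leaf was harvested on 25 November and the other 2 on 28 November, so plant and date cannot be told apart. The ratio of tissue means of this gene was 1.99 ± 0.893. At the opposite end, Zm00001d051211 had the smallest spread between replicates of all 118 (a mean coefficient of variation of 3.43%), with 107, 112 and 111 CPM in hypocotyl at the top and 56.7, 57.7 and 55.0 CPM in tassel at the bottom. Its ratio of 1.95 was in the upper part of the allowed range, and 98.3% of its variance lay between tissues.

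Across the 118, the tissue with the highest mean was V2 blade for 23 genes, DAP12_S seeds and silk for 21 each, the pollen-shed leaf for 17, DAP35_S seeds for 12, internode for 7, tassel for 6, root for 5, hypocotyl for 4 and ear for 2. Immature leaf was highest for 0. The lowest mean was in tassel for 29 genes, in DAP35_S seeds and immature leaf for 18 each, in internode for 10, in hypocotyl and ear for 9 each, in V2 blade for 8, in root, pollen-shed leaf and silk for 5 each, and in DAP12_S seeds for 2. Tassel libraries were also the lowest single library for many: library 1 for 17 genes, library 2 for 7 and library 3 for 18.

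The genes did not shift as a block. Set against each gene's own mean over tissues on the log2 scale, the median gene was at 0.16 in DAP12_S seeds and at -0.20 in tassel, with every other tissue between -0.10 and 0.08. In V2 blade the quartiles of the genes lay at -0.23 and 0.34, the widest such span of the 11 tissues, followed by DAP35_S seeds at -0.26 and 0.25. The other abundant genes had similar medians, 0.15 in DAP12_S seeds and -0.18 in tassel, though silk was higher at 0.26. Their quartiles in V2 blade lay at -0.69 and 0.54, so these features are not particular to the 118. Both green blades stood above both hypocotyl and immature leaf for 51 genes and below both for 26. The same count was not made for the other abundant genes, so it cannot be called particular to the 118. A principal component analysis of the 118 log2 profiles put 23.6%, 18.0% and 13.9% of the variance on the first 3 components.

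**Figure D3:**
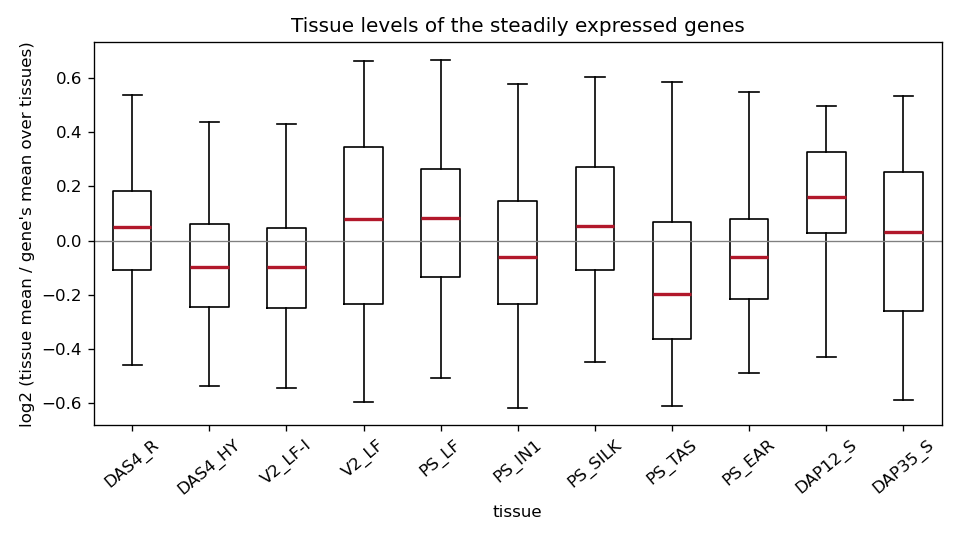
Log2 of each gene's tissue mean over its own mean across the 11 tissues, for the 118 steadily expressed genes; boxes show the quartiles, red lines the median and whiskers the lowest and highest gene. The medians stay between -0.20 (PS_TAS) and 0.16 (DAP12_S), and V2_LF and DAP35_S have the tallest boxes.

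Even so, small tissue differences were measured precisely. A quasi-likelihood F test of equal means over the 11 tissues (edgeR, Benjamini-Hochberg adjusted p under 0.05) called 118 of the 118, beside 99.5% of all 28997 genes tested and 559 of the 559 other abundant genes. Since the choice used these very means and nearly every gene was called, the count says only that a ratio below 2 was still resolved with 3 libraries per tissue. Of the variance of a gene over libraries, a median of 87.4% lay between tissues in the 118 and 94.8% in the other abundant genes. From the 118 alone, the most similar library was of the same tissue in 33 of 33 cases. The coefficient of variation between replicates had a median of 6.95% in the 118 (range 3.43% to 12.3%) and 9.25% in the others. A limit on the ratio can itself favour genes with a small spread, so this difference is a description.

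The choice was repeated with each replicate number held out of all tissues, and the ratio was then read from the held-out libraries, 1 per tissue. Without the libraries numbered 1, 128 genes were chosen, and in the held-out libraries 50.8% of them had a ratio of at most 2, against 2.18% of the 597 other genes that reached the level in the libraries kept. Holding out number 2, 101 genes were chosen and 70.3% of them passed, against 5.72% of 594 others, and for number 3 it was 68.1% of 116, against 3.24% of 648 others. The median held-out ratio of the chosen genes was 1.99, 1.89 and 1.88 for the 3 numbers, against 3.94, 3.51 and 3.95 in the others. Those others were the genes whose ratio exceeded 2 in the kept libraries of the same tissues. A gap between chosen and other genes was thus largely built into the comparison, which is no independent support for the choice. Single libraries scatter more than means of 3, and the highest held-out ratio of a chosen gene was 3.53. Of the 118, the choices made without numbers 1, 2 and 3 contained 110, 93 and 103.

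How even these genes looked rested on the scaling between libraries. The TMM factors spanned 2.99-fold, from 0.488 in a V2 blade library to 1.46 in an ear library. Without them the median ratio of the 118 was 3.29 (range 1.95 to 5.60), 117 genes exceeded a ratio of 2 and 72 exceeded 3. Before scaling, 85 of the 118 were lowest in V2 blade and 32 in tassel, while 48 were highest in DAP12_S seeds and 28 in ear. The median gene was then at -0.95 in V2 blade and -0.76 in tassel on the log2 scale, and at 0.56 in DAP12_S seeds.

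In reads, the 118 together took 0.738% ± 0.0140 of the gene reads in V2 blade and 0.873% ± 0.140 in tassel (SD, n = 3 each). The share was 1.22% ± 0.0397 in the pollen-shed leaf, 1.25% ± 0.0455 in DAP35_S seeds and 1.41% ± 0.0642 in immature leaf. It was between 1.54% and 1.92% in silk, internode, hypocotyl, ear and root, and 2.09% ± 0.0712 in DAP12_S seeds. The V2 blade libraries lay below all others, and 2 of the 3 tassel libraries (0.787% and 0.797%) lay close above them while the remaining one had 1.035%. Whether the cells of V2 blade held fewer of these transcripts, or the same number beside more of other kinds, cannot be told apart from shares of reads, and in whole organs fewer expressing cells and less RNA per cell cannot be told apart either.

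**Figure D4:**
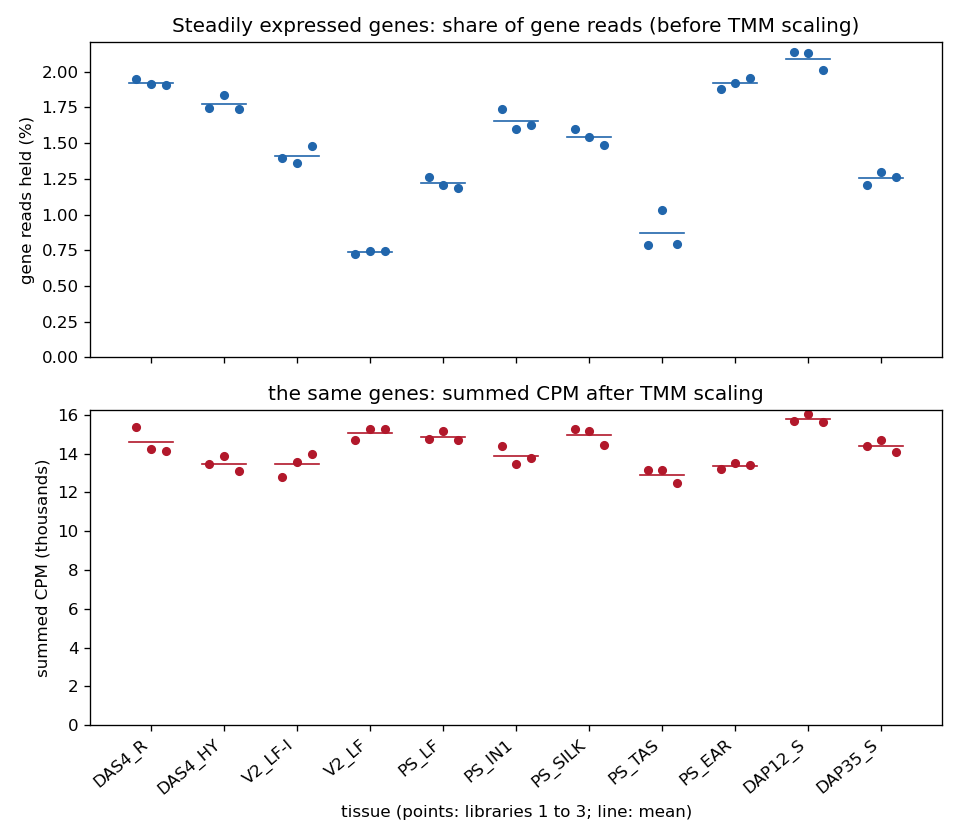
Top, the share of all gene reads (percent) held together by the 118 steadily expressed genes in each library; bottom, their summed TMM-scaled CPM (axis marked in units of 1000); points are libraries 1 to 3 and lines tissue means. The share spans 0.722% to 2.13%, while the scaled sums lie in a narrow band with tassel lowest and DAP12_S highest. The choice sets a limit to this band, since it held the scaled tissue means of each gene within a ratio of 2.

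Applied to CPM without TMM factors, the same rule picked 12 genes, of which 1 was among the 118. That gene, Zm00001d044600, had a ratio of 1.95 before scaling. Its unscaled CPM was 55.0, 56.9 and 59.4 in V2 blade and 114, 110.4 and 98.7 in DAP12_S seeds, whereas its scaled CPM was 112, 117 and 121 in V2 blade and 83.8, 83.2 and 76.8 in DAP12_S seeds. The order of these tissues thus turned round with the scaling.

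The ratio of 1 gene to another within a library is not changed by any scaling factor. The partners used here were picked by their TMM-scaled CPM, however, so a mean over them is not free of the scaling. For every pair of the 677 abundant genes the SD of the log2 ratio over the 33 libraries was taken, and each gene was given the mean over its partners. This value had a median of 0.63 in the 118 (range 0.58 to 0.70), against 0.79 in the other abundant genes (0.60 to 2.18), and 89 of the 118 (75.4%) were among the 118 lowest of the 677. The 12 genes picked without TMM factors, 9 of them among the 677, had a median of 0.70 when paired with the same 677. Measured among their own kind only, the median was 0.37 for the 118 and 0.32 for the 12, against 0.83 for the other abundant genes, so each set was even relative to itself. The pair values come from the same reads as the choice and are a description of it, not an independent check.

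The choice did not contrast harvest dates. In leaf, internode, tassel and ear at pollen shed, 2 plants per tissue were harvested on 28 November and 1 on 25 November, and the 12 libraries were compared between dates within tissues. The earlier plant was library 1 in each of these tissues, so date and replicate number cannot be told apart. The date contrast used sense counts of libraries that the choice also used, where all 118 had to reach 50 CPM and keep their tissue means within the allowed ratio, so the choice itself limits how far they could differ by date. Between 28 and 25 November edgeR's quasi-likelihood test called 0 of the 118 at an adjusted p under 0.05, beside 0.0951% of the 27328 genes tested and 0 of the 559 other abundant genes, and DESeq2 called 0 of the 118 beside 3.01% of those genes. At an unadjusted p under 0.05 there were 3 of the 118 (2.54%), beside 12.4% of all genes tested and 47 of the 559 others (8.41%). The log2 differences of the 118 ran from -0.28 to 0.33 with a median of -0.0031, and those of the other abundant genes from -1.27 to 1.20.

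The smallest adjusted p among the 118 was 0.258 in edgeR's test, for Zm00001d044054, at a log2 difference of 0.33. Its CPM on 28 November was 94.7 and 99.2 in leaf, 110.4 and 125 in internode, 80.3 and 73.8 in tassel, and 89.6 and 101 in ear, against 85.7, 84.8, 71.5 and 65.0 in the same tissues on 25 November. All 8 later plants were above the earlier plant of their tissue, in tassel by the least. Zm00001d044172 (0.32, adjusted p 0.334 in edgeR's test) and Zm00001d018112 (-0.23, adjusted p 0.367) followed. These 3 genes were picked out after their values were seen.

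The libraries keep the strand of the transcript, so reads from the opposite strand of a gene are counted apart, and the choice did not use them. Summed over the 118 genes, 0.515% ± 0.0466 of the reads came from the opposite strand in V2 blade (SD, n = 3), against tissue means of 0.0893% to 0.218% elsewhere. In the other abundant genes the V2 blade value was 0.130% ± 0.0122. Over all genes the opposite-strand share was higher, at 1.28% to 1.35% in the V2 blade libraries. It was 3.35% to 4.33% in those of DAP35_S seeds and 0.900% to 1.44% in the rest. Over the 118, the V2 blade libraries, at 0.4697%, 0.512% and 0.563%, stood above all others, of which the nearest was the first pollen-shed leaf at 0.373%. That leaf library was as high in the other abundant genes, at 0.376% against 0.130% and 0.153% in leaf libraries 2 and 3, so its value was not particular to the 118.

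A single gene carried most of the V2 blade share. Zm00001d032198, with a mean of 135 CPM on its own strand and a ratio of 1.94, had 489, 677 and 453 reads on the opposite strand in the V2 blade libraries, beside 1385, 1737 and 1407 on its own. In the 30 other libraries it had 0 to 11 such reads, with 15 in all over the immature leaf libraries and 10 over the pollen-shed leaf libraries. The opposite strand thus held 26.2% ± 1.85 of its reads in V2 blade and at most 0.276% in any other library. Without this gene the share over the remaining genes was 0.175% ± 0.0105 in V2 blade, against tissue means of 0.0900% to 0.220% elsewhere.

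The gene was singled out after its values were seen. The count without regard to strand equalled the sum of both strands in it (0 reads differed), so none of its reads was shared with another annotated gene.

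On its own strand the gene showed no matching step. The choice itself excluded a step of that size, since it held the sense tissue means within a ratio of 2. Whether the sense level changes with the opposite-strand reads was therefore not tested. Its sense level in V2 blade was 137, 156 and 144 CPM, inside the range of the other tissues, and the highest tissue was the pollen-shed leaf at 155, 216 and 206 CPM. The lowest was DAP12_S seeds at 96.7, 92.2 and 108 CPM. Counted without strand, its ratio of highest to lowest tissue would have been 1.98. The opposite-strand level in V2 blade was 51.9 ± 7.75 CPM, against at most 0.316 CPM in any other library.

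**Figure D5:**
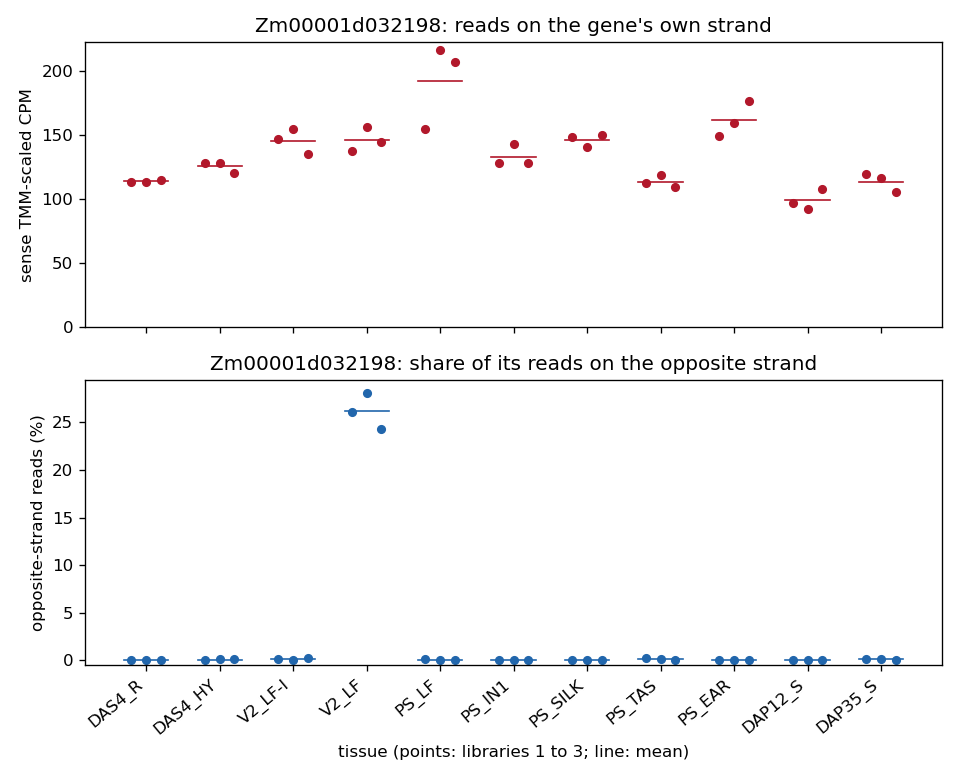
Zm00001d032198 in each library by tissue: top, TMM-scaled CPM of reads on its own strand; bottom, the percent of its reads on the opposite strand; points are libraries 1 to 3 and lines tissue means. The 3 V2_LF libraries lie near 26.2% in the lower panel and all others at 0.276% or less, while the upper panel shows no step at V2_LF.

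Other genes of the 118 stayed at lower shares in any single library. Zm00001d024342 had 19, 17 and 50 in V2 blade, up to 7.01% of its reads, and at most 11 in any other library. Zm00001d018309 had 38, 29 and 45 in tassel, up to 2.79% of its reads, against at most 13 elsewhere. Zm00001d045603 had the highest share over all libraries (2.80%), from 2153 opposite-strand reads, but 1663 of its reads on both strands together were not assigned to it when strand was ignored, as happens where another annotated feature overlaps. Zm00001d014977, at 0.672%, came after Zm00001d032198 in that order. For 115 of the 118 genes the share stayed under 5% in every library.

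Genes with the pattern of Zm00001d032198 were sought in the whole series: at least 50 opposite-strand reads and 20% of the reads in each library of 1 tissue, at most 2% in every other library, and 50 or more reads on both strands together in all 33. V2 blade had 1 such gene, the one described, and tassel had 15, of which 0 were steadily expressed. The other 9 tissues had 0. These limits were set after Zm00001d032198 had been seen. The number of genes that met the read minimum in all 33 libraries is not given here. These counts thus have no share beside them, and nothing about the steadily expressed genes is read from them.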

How the data were processed

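Messenger RNA libraries of 33 samples (11 tissues, 3 plants or pools each) were made with a stranded kit. The authors trimmed reads with Trimmomatic, removed ribosomal reads with SortMeRNA, aligned them to the AGPv4 assembly with STAR and deposited counts per gene as STAR writes them, whole numbers in an unstranded, a forward and a reverse column. Neither a STAR version nor an annotation release was found in the labels or methods. The reverse column (sense) was used, the forward column (antisense) for opposite-strand reads, and the lines naming no gene (10.3% to 20.2% of reads, median 12.1%) were left out.

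TMM factors over 46430 gene rows were computed with edgeR 4.0.16 in R 4.3.3, and its quasi-likelihood tests were run on genes kept by filterByExpr (minimum count 10, minimum total 15). The tissue test used a group per tissue, and the date test 12 libraries with tissue as covariate. DESeq2 1.42.0 served as an alternative. Tests were tried on simulated counts, where changes of 1 on the log2 scale were recovered in 64% of genes for the tissue test (over 27569 genes) and in 88% for the date test (over 27323 genes). False calls numbered 11 and 9. The simulation gave every gene the same fixed dispersion and placed the tissue change in tassel only, so its rates need not hold for these data. The opposite-strand share over the genes is given with its F ratio between tissues and no p. The pair ratios were added after the data were seen.

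Genes named are the 10 with the lowest ratio, the 6 with the most reads, the nearest to each limit and the 3 with the highest opposite-strand share. Genes named otherwise are said to be chosen after their values were seen, which also holds for Zm00001d024342, Zm00001d018309, Zm00001d044600 and Zm00001d051211. The genes, limits and lists were chosen with earlier results of these data known. The reference table could not be matched to the identifiers, so sequence features were not used here. Function terms in the supplement of the study cover some of the identifiers, but differed between its sheets for most shared genes and were not used. Libraries are separate plants or pools of 1 tissue, and chi-square per degree of freedom between replicates was 8.42 to 129.6, so none was a copy of another. Alternatives were other scalings, the unstranded column, other limits, left-out tissues and libraries, no filter and a replicate block.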

Additional observations from a re-analysis of the deposited data

How the results depend on the processing

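The number of steadily expressed genes was 118. It was 12 with plain CPM, 379 and 17 with a minimum of 25 and 100 CPM, 6 and 329 with a ratio of at most 1.5 and 3, and 39 with the ratio of single libraries. Leaving out tassel gave 187 genes and leaving out V2 blade 191, and both together, an alternative added after the data were seen, gave 301, of which 115 were among the 118. The other 9 tissues left out in turn gave 118 to 160. DESeq2 size factors gave 130 genes (108 shared), TMM factors from filtered genes 115 (113 shared), the unstranded column 116 (114 shared) and tissue medians 107 (102 shared). Leaving out replicate numbers gave 101 to 128, and single libraries 105 to 137, the extremes being tassel libraries 2 and 3.

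The F ratio of the opposite-strand share between tissues was 18.6 and ran from 9.08 to 32.6 without single replicate numbers. It was 0.981 with the median share per gene and 1.30 over the 115 genes under 5% in every library. In alternatives added after the data were seen it was 1.97 without Zm00001d032198 and 1.72 within the tissues other than V2_LF.

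The tissue test called 112 to 118 of the 118 without single replicate numbers. The replicate numbers were not taken to pair the samples, since same-numbered libraries of 2 tissues had correlated deviations over 0.1 in only 10 of 55 tissue pairs (median 0.0192, range -0.167 to 0.238), and in 4 of 10 pairs of pollen-shed tissues (median 0.0909). As a hint from the data, 20 of 33 libraries correlated best with their own number, and in 4 of the pollen-shed tissues number 1 is also the earlier harvest date. With the replicate number as a block, 118 of the 118 were called. No such block could be fitted in the date test, where number and date coincide. The date test called 0 of the 118 under each alternative run. Over all genes it called 26, against 822 with DESeq2, 52 without the filter, 7 to 54 without single libraries and 0 without the pollen-shed leaf, and the cause was not tested.

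This check covered the 27 genes named by rank or by nearness to a limit, including those just outside a limit. With plain CPM the ratio of 26 moved by more than its replicate SD. It did so for 6 with DESeq2 size factors and for 0 with the unstranded column. Without replicate numbers 1, 2 and 3 it did so for 1, 4 and 0. The other genes named here were not in this check.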
